A study of Mus musculus with 36 samples.

Results

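Nephron progenitor genes were followed in mouse kidneys over the days after birth in which the formation of new nephrons ends. The set holds 9 genes, Six2, Cited1, Eya1, Gdnf, Meox1, Crym, Lhx1, Osr1 and Uncx, out of 20458 gene symbols in a table of 29996 RefSeq transcripts, and the rule takes them by name, with no threshold on a measured value, although earlier results of these data were known when they were picked. For each gene the transcript with the highest mean count was used. All mice were C57BL/6. WT mice were Pkd1 f/f or Pkd2 f/f, with both alleles of the gene floxed and no Cre, and KO mice were their littermates Pkd1 f/f:HoxB7-Cre or Pkd2 f/f:HoxB7-Cre. Each model was sampled at postnatal days P1, P3 and P7, with 3 KO and 3 WT libraries at each day, which gave 36 libraries in 12 groups. HoxB7-Cre drives recombination in the collecting duct and the ureteric lineage that forms it, not in nephron progenitors, whereas the RNA came from kidney tissue as a whole.

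Nephron progenitors are the cells of the cap mesenchyme, the condensed tissue around each tip of the branching ureteric bud. They renew under the transcription factor Six2, send Gdnf to the bud, and form nephrons by way of renal vesicles after a Wnt signal from it. In the mouse the last of them differentiate within days of birth, after which no new nephrons form. Six2, Cited1, Eya1, Meox1, Crym, Osr1 and Gdnf are used as markers of the cap mesenchyme, Uncx is a homeobox gene of the metanephric mesenchyme, and Lhx1 is a homeobox gene needed in the renal vesicle and the early nephron.

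Library totals ran from 7179152 to 15850818 counts on transcripts, with a median of 13143336. Podocyte, proximal tubule and collecting duct genes were present (Nphs1, Lrp2 and Aqp2, mean counts of 1869 to 12611 over all libraries), while the rows of Umod, Slc12a3, Pecam1 and Ptprc were at or near 0. The latter 4 genes have several RefSeq transcripts each, and the counting left out reads that several transcripts share: the median mean count was 157 for the 15732 genes with 1 transcript and 1.08 for the best transcript of the 4726 genes with several. Of the 9 genes here, Six2, Meox1, Crym, Lhx1, Osr1 and Uncx have 1 transcript. Cited1 has 4, Eya1 2 and Gdnf 4, so that their counts cannot be read as levels of the gene. In 3 libraries all 5 adrenal cortex markers stood above every other library: their sum was 4949 CPM (counts scaled to the library total) in Pkd2 WT replicate 2 at P3, 1354 in Pkd1 KO replicate 1 at P7 and 1223 in Pkd2 KO replicate 3 at P7, against 8.08 to 34.8 in the other 33. Y-linked counts were present in 2, 3 and 0 of the 3 Pkd1 WT libraries at P1, P3 and P7 and in 0, 3 and 3 of the Pkd1 KO libraries. In Pkd2 they were present in 1, 1 and 2 WT and in 0, 0 and 3 KO libraries. The deleted genes, counted over the whole transcript, gave little check of the labels: of the 6 comparisons of KO with WT, the targeted gene was called in Pkd2 at P7 (-0.29 on the log2 scale, adjusted p = 0.0115 by edgeR).

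Of the 9 genes, 5 were in the promoter table of RefSeq (GRCm38.p6), which holds the 250 bases before and 50 bases after each transcription start. The sequences of Six2, Lhx1 and Uncx are shown, since these 3 have the highest mean counts of the members and were all lower at P7 than at P1. Capitals mark CCAAT, on either strand (CCAAT or ATTGG), and TAATTA, the core of many homeodomain sites, which reads the same on both strands. The marked letters do not overlap each other. Six2 lies at chr17:85688205-85688504 on the minus strand, Lhx1 at chr11:84525485-84525784 on the minus strand and Uncx at chr5:139543648-139543947 on the plus strand.
Six2: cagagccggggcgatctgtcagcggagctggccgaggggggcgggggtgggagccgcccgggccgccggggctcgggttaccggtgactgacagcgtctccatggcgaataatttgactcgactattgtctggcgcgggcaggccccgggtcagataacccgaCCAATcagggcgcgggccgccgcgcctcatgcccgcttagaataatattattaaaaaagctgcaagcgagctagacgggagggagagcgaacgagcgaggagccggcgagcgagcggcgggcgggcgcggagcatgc
Lhx1: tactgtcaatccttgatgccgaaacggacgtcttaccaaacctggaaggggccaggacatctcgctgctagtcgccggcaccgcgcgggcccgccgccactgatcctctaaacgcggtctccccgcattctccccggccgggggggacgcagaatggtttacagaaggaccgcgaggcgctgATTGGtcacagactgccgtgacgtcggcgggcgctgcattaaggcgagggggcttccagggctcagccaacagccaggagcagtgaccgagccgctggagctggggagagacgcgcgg
Uncx: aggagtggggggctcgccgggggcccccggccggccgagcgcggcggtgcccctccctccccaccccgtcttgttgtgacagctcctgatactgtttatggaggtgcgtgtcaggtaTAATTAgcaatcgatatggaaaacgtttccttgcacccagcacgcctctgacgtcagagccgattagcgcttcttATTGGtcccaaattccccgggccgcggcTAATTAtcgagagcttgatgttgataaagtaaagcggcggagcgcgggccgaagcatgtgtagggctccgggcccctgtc
Each of the 3 holds 1 CCAAT, and 37.4% of the 32851 promoters in the table hold at least 1. Uncx holds 2 copies of TAATTA, of which 5.29% of promoters hold at least 1. TATAAA, found in 13.6% of promoters on either strand, is in none of the 3. Their GC content was 67.3% for Six2, 65.7% for Lhx1 and 60.7% for Uncx, against a median of 52.7% over all promoters.

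Levels per transcript length were compared in the WT kidneys at P1, where nephron formation is still under way. RPKM here is the read count scaled by transcript length and by the library's total over the tested transcripts times its TMM factor within the model. Uncx was the highest of the 6 genes with a single transcript, at 47.4 ± 3.32 RPKM in Pkd1 WT and 35.8 ± 8.11 in Pkd2 WT (SD, n = 3). Six2 followed with 34.6 ± 2.54 and 31.6 ± 7.84, then Crym with 26.9 ± 1.49 and 27.4 ± 4.70, and Lhx1 with 21.7 ± 3.54 and 20.98 ± 4.34. Meox1 had 12.8 ± 0.458 and 14.6 ± 1.19 RPKM, and Osr1 was the lowest with 8.53 ± 3.33 and 7.17 ± 2.84. In Pkd1 WT no library of a gene in this order overlapped a library of the next gene. In Pkd2 WT the libraries of Uncx, Six2, Crym and Lhx1 overlapped from each gene to the next, and those of Lhx1, Meox1 and Osr1 did not. All further values are normalized counts, that is counts scaled by TMM factors within a model, which are not compared between genes.

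The loss by P7 was counted first. Of the 9 genes, 7 passed the filter of 10 or more counts in 3 or more of the libraries in each model, and Eya1 and Gdnf did not. Cited1 passed it only through its P1 libraries, where it is high. The filter thus favours a lower value of Cited1 after P1, and its calls over time are no separate support. Comparing P7 with P1, 5 of the 7 were lower in Pkd1 WT kidneys (Six2, Cited1, Lhx1, Osr1 and Uncx) and 6 in Pkd1 KO (these and Crym) at the threshold of 0.05 for the adjusted p of edgeR's quasi-likelihood test. The background was 13.2% of all transcripts tested in Pkd1 WT and 20.5% in Pkd1 KO. In the Pkd2 model the same 5 genes were lower in WT, against a background of 13.6%, and in KO, against 10.4%. No gene of the set was higher at P7 than at P1 in any of the 4 series. The median log2 fold change of the 7 was -2.63 in Pkd1 WT, -1.94 in Pkd1 KO, -2.64 in Pkd2 WT and -3.37 in Pkd2 KO, where that of all transcripts tested lay between -0.01 and 0.01. In whole kidneys, fewer progenitor cells and less RNA per cell cannot be told apart.

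**Figure D1:**
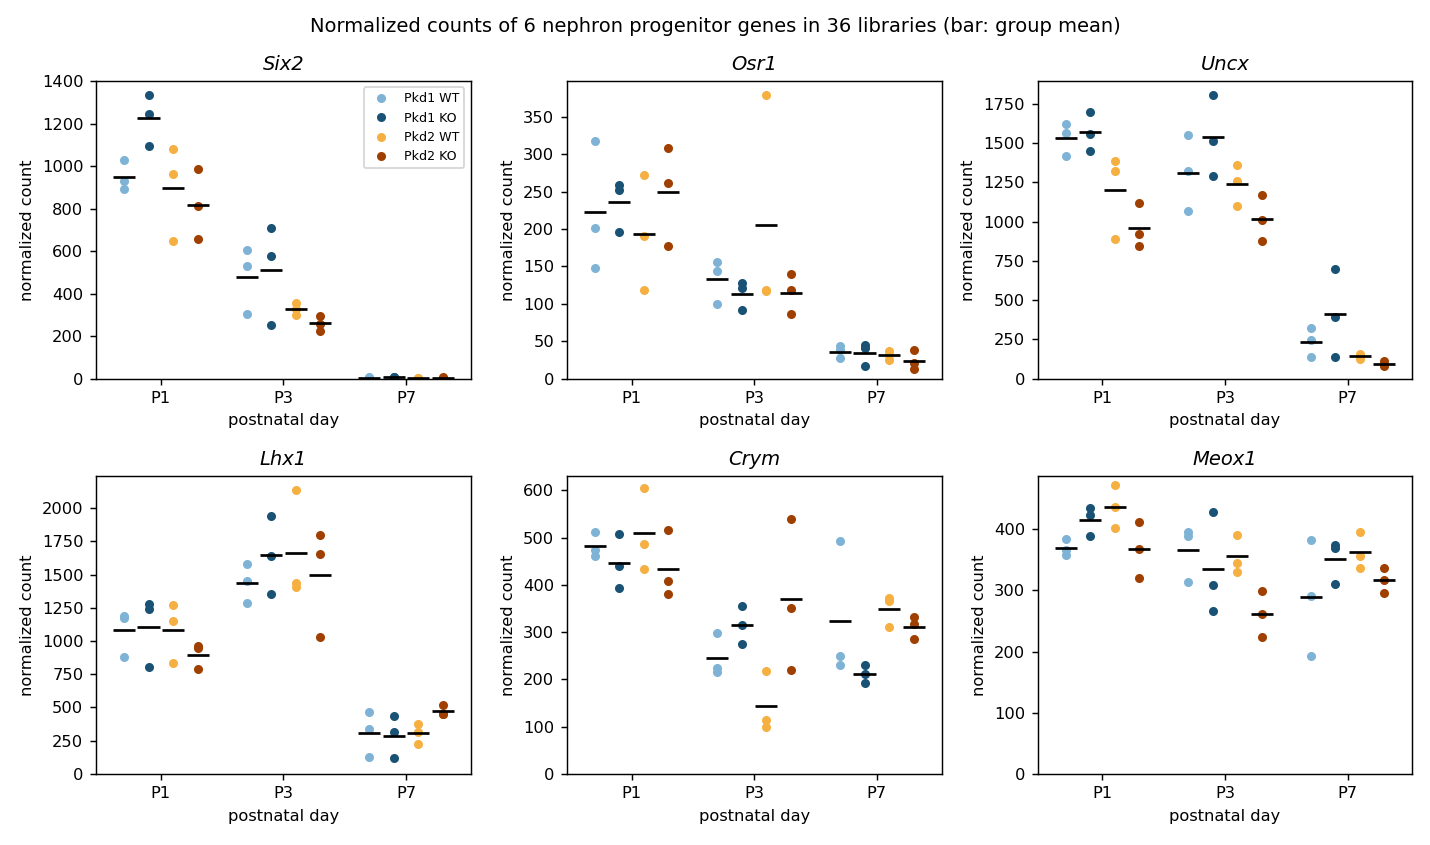
Normalized counts of the 6 genes with a single RefSeq transcript in all 36 libraries, with postnatal day on the x axis, normalized count on the y axis (from 0), 1 point per library, colours for model and genotype and a bar at the group mean. Six2 falls from 650 or more at P1 to under 10 at P7 in every library, Lhx1 is highest at P3, and Meox1 stays between 192 and 473.

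Six2 (NM_011380, chromosome 17, 85662736 to 85688254, minus strand of mm10), the homeodomain factor that keeps progenitors undifferentiated, showed the deepest loss among the 6 genes with a single transcript. At P1 it had 929, 894 and 1028 normalized counts in Pkd1 WT and 1335, 1245 and 1096 in Pkd1 KO kidneys. In Pkd2 it had 650, 964 and 1081 in WT and 988, 813 and 656 in KO. Every library was thus at or above 650 on the first day.
At P3 the counts were 606, 306 and 530 in Pkd1 WT and 251, 710 and 578 in Pkd1 KO, and 325, 355 and 298 in Pkd2 WT and 296, 258 and 225 in Pkd2 KO. No P3 library reached the lowest P1 library of its own group, and the Pkd1 libraries were more scattered than those of Pkd2. Summed over the replicates, 49.97% of the P1 level was left in Pkd1 WT at P3, 41.4% in Pkd1 KO, 36.1% in Pkd2 WT and 32.1% in Pkd2 KO.
At P7, 4.49, 9.67 and 0.943 normalized counts were left in Pkd1 WT, 6.06, 9.14 and 1.86 in Pkd1 KO, 2.05, 1.90 and 0 in Pkd2 WT and 0, 5.15 and 3.18 in Pkd2 KO. These rest on 17, 17, 4 and 8 raw reads per group of 3 libraries. They amount to 0.535% of the P1 level in Pkd1 WT (95% interval 0.311% to 0.859%) and 0.455% in Pkd1 KO (0.265% to 0.729%). In Pkd2 they amount to 0.150% in WT (0.0409% to 0.385%) and 0.345% in KO (0.149% to 0.681%). The intervals are exact and cover counting error only.

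The fall of Six2 had 2 steps of unequal depth. Between P1 and P3 its log2 fold change was -0.98 (standard error 0.32) in Pkd1 WT and -1.26 (0.32) in Pkd1 KO, with adjusted p = 0.16 and 0.0839, and -1.46 (0.24) in Pkd2 WT and -1.66 (0.24) in Pkd2 KO, with adjusted p = 0.0130 and 0.00355. The first step therefore passed edgeR's test in both Pkd2 genotypes and in neither Pkd1 genotype. P1 and P3 libraries did not overlap in any of the 4, and the share of all transcripts without overlap was not taken. Between P3 and P7 the change was -6.52 (standard error 0.51) in Pkd1 WT, -6.49 (0.51) in Pkd1 KO, -7.78 (0.45) in Pkd2 WT and -6.48 (0.41) in Pkd2 KO, with adjusted p between 8.5e-08 and 2.12e-06. Over the whole span it was -7.50 (0.51), -7.75 (0.51), -9.25 (0.44) and -8.13 (0.40). At the few reads left at P7 these folds depend on the prior count of the fit, and the percentages above do not. The standard errors were derived from these folds and do not cover the counting error there. In the same Pkd2 fit, the difference between KO and WT in the change from P1 to P7 had a standard error of 0.945.

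Cited1 (NM_001276466, X chromosome, 102247378 to 102252181), a transcriptional co-regulator that marks the progenitors that have not yet responded to the Wnt signal, was measured on 1 of its 4 transcripts and at low counts. At P1 it had 22.9, 12.7 and 29.4 normalized counts in Pkd1 WT and 28.9, 22.3 and 23.7 in Pkd1 KO, and 14.9, 26.0 and 34.4 in Pkd2 WT and 20.2, 20.2 and 16.1 in Pkd2 KO. At P3 the group means were 5.49 ± 3.63, 5.10 ± 3.84, 1.65 ± 0.522 and 2.74 ± 3.17 (SD, n = 3), and no P3 library overlapped the P1 libraries of its group. At P7 no library had more than 2 raw reads. A second Cited1 transcript, NM_007709, had a mean of 4.67 raw reads over the 36 libraries and the other pair 1.25 and 0.
The log2 fold change between P1 and P3 was -1.97 (standard error 0.65, adjusted p = 0.165) in Pkd1 WT, -2.27 (0.65, 0.110) in Pkd1 KO, -3.83 (0.71, 0.0181) in Pkd2 WT and -2.72 (0.67, 0.0530) in Pkd2 KO, so that 1 of the 4 was called, and that call was kept in 3 of the 6 fits that leave out 1 library. Between P1 and P7 it fell in all 4 series, with log2 fold changes of -4.93, -5.0, -4.97 and -5.32 and adjusted p between 0.000388 and 0.000728. These folds rest on 2, 2, 2 and 1 reads at P7, and they were -7.65 in Pkd1 KO without KO replicate 1 at P7 and -7.25 in Pkd2 KO without KO replicate 2 at P7. By P3 the Cited1 transcript kept 24.3%, 20.2%, 6.59% and 14.8% of its P1 level in the same order, beside 49.97%, 41.4%, 36.1% and 32.1% for Six2. The difference between the genes was not tested.

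Eya1, which works as a co-activator with Six2 and its relatives, and Gdnf, the ligand that draws the ureteric bud, were near the limit of the counting. Eya1 (NM_010164, chromosome 1, 14168953 to 14311035) had 12, 16, 12 and 11 raw reads per group at P1 in Pkd1 WT, Pkd1 KO, Pkd2 WT and Pkd2 KO, 14, 12, 5 and 3 at P3, and 0 in all 12 libraries at P7. The 0 reads of Eya1 at P7 allow up to 25.1% of the P1 level in Pkd1 WT, 26.3% in Pkd1 KO, 36.3% in Pkd2 WT and 45.9% in Pkd2 KO (upper bounds of the exact 95% intervals). Unlike Six2, its P3 reads overlapped the P1 reads in every series. Gdnf (NM_001301333, chromosome 15, 7810048 to 7837580) had at most 4 reads in a library: 6, 6, 1 and 0 per group at P1, 1, 1, 3 and 0 at P3, and 0 at P7 in all 4, and no fold is given for it. Their other transcripts had 0 reads in every library. An annotated microRNA and a further gene lie inside Eya1 in GENCODE.

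Osr1 (NM_011859, chromosome 12, 9574442 to 9581500), an odd-skipped zinc finger gene active from the intermediate mesoderm on, was lower at P7 than at P1 in all 4 series, while edgeR called none of its changes between P1 and P3. At P1 it had 201, 148 and 318 normalized counts in Pkd1 WT, 253, 196 and 259 in Pkd1 KO, 119, 190 and 272 in Pkd2 WT and 261, 309 and 178 in Pkd2 KO. At P3 it had 144, 99.6 and 156 in Pkd1 WT, 91.3, 121 and 128 in Pkd1 KO and 118, 85.8 and 140 in Pkd2 KO. The Pkd2 WT kidneys at P3 were the exception, with 117, 379 and 119, in which replicate 2 exceeded every P1 library.
That library is the one with 4949 CPM of adrenal markers, and Osr1 was also highest in the replicate with adrenal markers in the other 2 such groups, at 44.5 beside 16.3 and 40.9 in Pkd1 KO at P7 and 38.1 beside 12.6 and 20.6 in Pkd2 KO at P7. In Pkd1 KO at P7 replicates 1 and 3 both had 44 raw reads, so their order came from the scaling alone. The part of adrenal tissue in these Osr1 counts was not tested. Without the 3 libraries the change from P1 to P3 in Pkd2 WT turned from 0.08 to -0.73 on the log2 scale, with adjusted p = 0.944 and 0.328. It was -0.75 in Pkd1 WT, -1.06 in Pkd1 KO and -1.12 in Pkd2 KO, with adjusted p between 0.123 and 0.258 in these 3.
At P7 the 3 Pkd1 WT kidneys had 43.1, 27.2 and 37.7 and the Pkd2 WT kidneys 24.6, 31.3 and 37.0 counts. The whole change from P1 to P7 was -2.63 (standard error 0.34) in Pkd1 WT, -2.79 (0.34) in Pkd1 KO, -2.64 (0.49) in Pkd2 WT and -3.38 (0.50) in Pkd2 KO, with adjusted p of at most 0.000934. Osr1 thus kept 15.4%, 14.5%, 15.9% and 9.58% of its P1 level. Its 5′ end overlaps that of 1700022H16Rik on the other strand, and whether the libraries keep strand is not given in the sources used here.

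**Figure D2:**
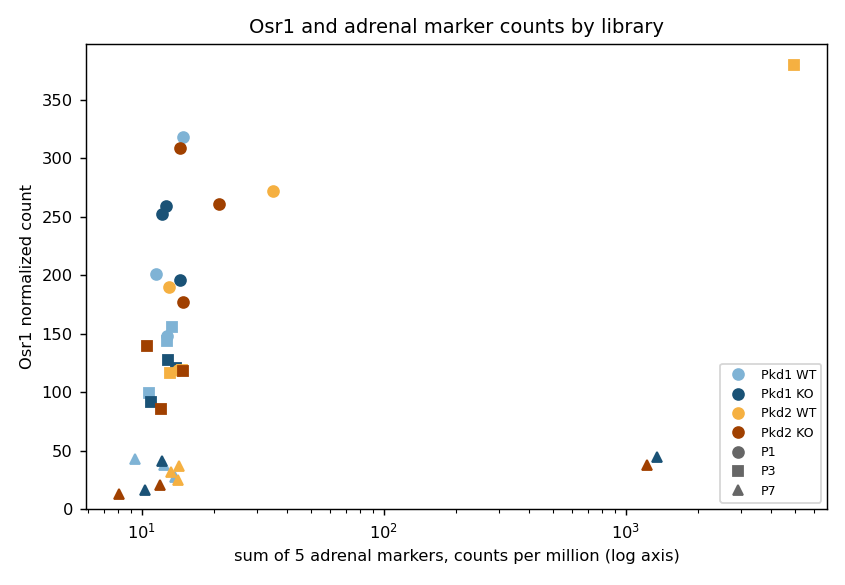
Osr1 normalized count (y axis, linear, from 0) against the summed CPM of 5 adrenal cortex markers (x axis, log scale) in the 36 libraries, with colours for model and genotype and shapes for the day. Of the 3 libraries at 1223 CPM or more, the P3 library has the highest Osr1 value of all, 379, and the P7 libraries have 44.5 and 38.1.

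The fall of Uncx and Lhx1 came after P3. Uncx (NM_013702, chromosome 5, 139543865 to 139548179) had 1564, 1415 and 1624 normalized counts at P1 and 1548, 1067 and 1321 at P3 in Pkd1 WT, and 888, 1323 and 1389 at P1 and 1099, 1259 and 1361 at P3 in Pkd2 WT. In the KO kidneys it had 1695, 1560 and 1447 at P1 and 1291, 1514 and 1808 at P3 in Pkd1, and 1117, 919 and 843 and then 876, 1168 and 1012 in Pkd2. P1 and P3 overlapped in all 4 series, and 84.3%, 97.6%, 102.1% and 106.9% of the P1 level was there at P3 in Pkd1 WT, Pkd1 KO, Pkd2 WT and Pkd2 KO.
At P7 Uncx had 321, 248 and 135 in Pkd1 WT, 134, 699 and 394 in Pkd1 KO, 158, 146 and 125 in Pkd2 WT and 113, 87.5 and 78.3 in Pkd2 KO. The Pkd1 KO kidneys were by far the most scattered, and every other P7 library was at or below 321. The change between P3 and P7 was -2.48 (standard error 0.39), -1.91 (0.38), -3.11 (0.19) and -3.45 (0.19) in the same order, with adjusted p of 0.000563, 0.00133, 9.26e-08 and 8.2e-08. From P1 to P7 Uncx changed by -2.71, -1.94, -3.07 and -3.37, with adjusted p of at most 0.00102.

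Lhx1 (NM_008498, chromosome 11, 84517975 to 84525534) was the one member whose P3 libraries all lay above its P1 libraries. Its P1 values were 1177, 1187 and 877 in Pkd1 WT, 1276, 1244 and 805 in Pkd1 KO, 834, 1268 and 1149 in Pkd2 WT and 963, 945 and 787 in Pkd2 KO. At P3 it had 1578, 1290 and 1450, then 1945, 1353 and 1642, then 1433, 1407 and 2140, and then 1027, 1655 and 1801 in the same order. The 2 days did not overlap in any of the 4 series, and the share of all transcripts without overlap was not taken. Of these differences edgeR's test called none, and DESeq2 called that of Pkd2 KO (0.74, adjusted p = 0.0270). The log2 fold changes in edgeR were 0.42, 0.57, 0.61 and 0.73, with adjusted p of 0.62, 0.48, 0.154 and 0.102.
At P7 Lhx1 had 464, 334 and 125 in Pkd1 WT, 117, 434 and 314 in Pkd1 KO, 374, 316 and 226 in Pkd2 WT and 515, 448 and 452 in Pkd2 KO. It fell from P3 to P7, with log2 fold changes of -2.22 (standard error 0.40), -2.51 (0.40), -2.44 (0.24) and -1.66 (0.23) and adjusted p of at most 0.00147. Relative to P1 the changes were -1.81, -1.94, -1.83 and -0.93, with adjusted p between 5.84e-05 and 0.00822. Unlike Six2, Lhx1 and Uncx remained well measured at P7, with at least 74 raw reads in every library.

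Crym, which encodes a thyroid hormone binding protein, had a lower mean at P3 than at P1 in the WT kidneys and did not keep falling. Of the 2 WT series edgeR called this early fall in Pkd2 only. Crym (NM_016669, chromosome 7, 120186380 to 120201989) had 513, 462 and 474 normalized counts at P1, 216, 298 and 224 at P3 and 230, 493 and 250 at P7 in Pkd1 WT. In Pkd2 WT it had 434, 488 and 605, then 217, 115 and 98.9, and then 365, 373 and 311. Its lowest day was thus P3 in Pkd2 WT, with no overlap with either other day.
In the KO kidneys Crym had 508, 440 and 393 at P1, 355, 315 and 275 at P3 and 211, 231 and 191 at P7 in Pkd1, and 409, 380 and 516, then 540, 352 and 221, and then 285, 318 and 331 in Pkd2. The change from P1 to P3 was -0.97 (standard error 0.23, adjusted p = 0.0751) in Pkd1 WT, -0.50 (0.23, 0.29) in Pkd1 KO, -1.82 (0.30, 0.0130) in Pkd2 WT and -0.23 (0.28, 0.748) in Pkd2 KO. From P1 to P7 Crym fell in Pkd1 KO by 1.08 (adjusted p = 0.00176). The corresponding values were -0.57, -0.54 and -0.48 in Pkd1 WT, Pkd2 WT and Pkd2 KO, with adjusted p of 0.0722, 0.175 and 0.242. Pkd1 WT replicate 2 decided the first of these, since without it the value was -1.01 with adjusted p = 0.000548. Between P3 and P7 Crym rose by 1.28 in Pkd2 WT (standard error 0.29, adjusted p = 0.00487), where 12.4% of all transcripts tested were called higher.

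Meox1 (NM_010791, chromosome 11, 101877510 to 101894354), a mesenchyme homeobox gene, was the member that moved least. Its group means lay between 367 ± 45.8 and 437 ± 35.7 at P1, between 261 ± 37.9 and 366 ± 45.8 at P3 and between 288 ± 95.2 and 363 ± 29.9 at P7 (SD, n = 3). No change over time passed edgeR's test. From P1 to P7 the log2 fold change was -0.36 in Pkd1 WT, -0.24 in Pkd1 KO, -0.27 in Pkd2 WT and -0.21 in Pkd2 KO, with adjusted p between 0.118 and 0.363. From P1 to P3 the largest change was -0.49 in Pkd2 KO (standard error 0.12, adjusted p = 0.0565). Without Pkd1 WT replicate 3 at P7, the value for Pkd1 WT from P1 to P7 was -0.62 with adjusted p = 0.0379. An antisense gene, Gm11551, lies inside Meox1, and reads of the pair cannot be told apart without strand.

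**Figure D3:**
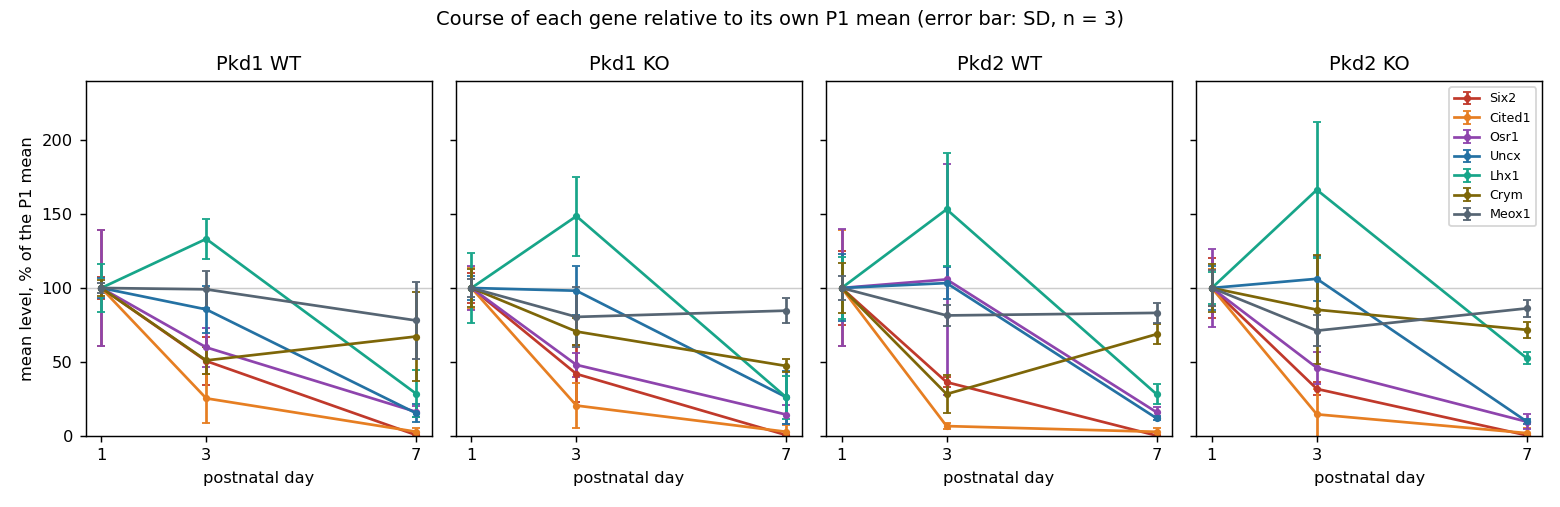
Mean level at P1, P3 and P7 (x axis, postnatal day) as a percentage of the P1 mean of the same series (y axis, from 0), for 7 genes in 4 panels for model and genotype, with error bars for the SD of 3 libraries. Six2 and Cited1 are near 0 at P7, Lhx1 is above 100 at P3, and Meox1 ends at 78.0% to 86.2%.

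By day, then, the first step took few members past the test. Between P1 and P3, 0 of the 7 were called lower in Pkd1 WT, where 4 had an unadjusted p under 0.05 and DESeq2 called 1 (Crym), and 0 in Pkd1 KO, where again 4 had such a p and DESeq2 called 1 (Osr1). In Pkd2 WT 3 were called lower (Six2, Cited1 and Crym) and in Pkd2 KO 1 (Six2). Cited1 is among the tested genes only through its P1 libraries. DESeq2 called the same 3 genes in Pkd2 WT, and in Pkd2 KO Six2, Cited1 and Meox1 lower and Lhx1 higher. The count for Pkd2 WT was 1 without WT replicate 2 at P1 and 0 without WT replicate 3 at P1, and that for Pkd2 KO was 3 without KO replicate 1 at P3. The share of all transcripts called lower by edgeR was 0.0479% in Pkd1 WT, 0.128% in Pkd1 KO, 0.633% in Pkd2 WT and 0.871% in Pkd2 KO. DESeq2 called 144, 174, 274 and 287 transcripts lower in the same order. In edgeR 1985, 2029, 2461 and 2078 had an unadjusted p under 0.05 in either direction. These are out of 12527 tested in Pkd1 and 12633 in Pkd2. Between P3 and P7, Six2, Lhx1, Osr1 and Uncx were lower in all 4 series, and Cited1 was called in addition in Pkd1 KO, on 16 and 2 reads (-2.73, adjusted p = 0.0396). That call was kept in 2 of the 6 fits that leave out 1 library, with values from -5.38 to -2.15. The shares of all transcripts called lower in that step were 9.4%, 20.8%, 14.7% and 7.71% in Pkd1 WT, Pkd1 KO, Pkd2 WT and Pkd2 KO. The Pkd1 WT libraries at P1 had the lowest totals of the series.

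The day and the presence of Y-linked counts were partly joined in these groups, above all in Pkd1. In Pkd1 that presence differed between replicates only in WT at P1, where replicate 2, the library with the lowest total, lacked Y-linked counts. The covariate in Pkd1 therefore rests on that library and is a weak check there. With that presence as a covariate, Six2, Cited1 and Osr1 were still lower at P7 than at P1 in all 4 series. Lhx1 and Uncx were also lower in 3 of them, and in Pkd1 KO, with Y-linked counts in 0 libraries at P1 and 3 at P7, they changed by -1.73 and -2.11 with adjusted p of 0.182 and 0.101. Their standard errors there were 0.74 and 0.71, beside 0.40 and 0.38 without the covariate. Crym there changed by -1.18 (adjusted p = 0.125), beside -1.08 without the covariate. Between P3 and P7 in Pkd1 WT, Lhx1 and Uncx were no longer called, at -2.43 and -2.31 with an adjusted p of 0.13 each, beside -2.22 and -2.48 without the covariate. Osr1 was not called either, at -1.08 beside -1.88 in Pkd1 WT (adjusted p = 0.36) and at -1.77 beside -2.27 in Pkd2 KO (adjusted p = 0.0932). Six2 was called in every one of these fits.

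Whether loss of Pkd1 or Pkd2 in the collecting duct changed the level of these genes was asked by comparing KO with WT at each day. In the Pkd1 model 0 of the 7 genes were called by edgeR's test at P1, P3 and P7, where 1, 0 and 0 had an unadjusted p under 0.05 and DESeq2 called 0. The share of all transcripts called was 0.0% at P1, 0.00798% at P3 and 13.5% at P7. In Pkd1 at P7 Y-linked counts were present in 0 of the 3 WT and in 3 of the 3 KO libraries. Genotype and that presence cannot be told apart there, for the genes or for the background. At P1 they were present in 2 WT and 0 KO libraries of Pkd1. In the Pkd2 model 0 were called at P1 and P3, with 0 and 2 at an unadjusted p under 0.05 and 0 by DESeq2. At P7 edgeR called 1, with 2 at an unadjusted p under 0.05, and DESeq2 called 2. The background shares were 0.0%, 0.0% and 14.1%. DESeq2 called 2, 33 and 38 transcripts where edgeR called 0, in Pkd1 at P1 and in Pkd2 at P1 and P3. It called 248 and 2763 in Pkd1 at P3 and P7 and 2254 in Pkd2 at P7. Over all transcripts edgeR gave an unadjusted p under 0.05 to 157, 1748 and 4186 of 12527 in Pkd1 at P1, P3 and P7. In Pkd2 it did so for 708, 565 and 3750 of 12633.

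The 1 call of edgeR was Lhx1 in Pkd2 KO kidneys at P7. Its 3 KO libraries, 515, 448 and 452, lay above the 3 WT libraries, 374, 316 and 226, 0.62 on the log2 scale (standard error 0.17, edgeR's adjusted p = 0.0480). The call was lost in 4 of the 6 fits that leave out 1 library, and over the 6 the value stayed between 0.45 and 0.80. Of these 4, 1 is the fit without the library with adrenal markers in that group, KO replicate 3 (0.66, adjusted p = 0.0979). The call was also lost with Y-linked counts as a covariate, in a fit of all 18 libraries of the model (0.57, adjusted p = 0.135). In the Pkd1 model the same comparison gave -0.09 (standard error 0.53).

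Six2 itself did not separate KO from WT at P7, at few reads. Its log2 fold change was 0.15 (standard error 0.85) in Pkd1 and 0.98 (1.16) in Pkd2, which leaves room for changes of either sign. At P1 the 3 Pkd1 KO libraries lay above the 3 WT libraries, by 0.36 (standard error 0.11), with an unadjusted p of 0.00816 and an adjusted p of 1. In Pkd2 the same difference at P1 was -0.14 (0.20), and at P3 the KO libraries lay below WT by 0.32 (0.14, adjusted p = 0.940).
Other differences did not pass edgeR's test either. Uncx at P7 was higher in Pkd1 KO, by 0.80 (standard error 0.53, adjusted p = 0.319), and lower in Pkd2 KO, by 0.62 (0.19, adjusted p = 0.0640), where the groups did not overlap. The Pkd2 difference of Uncx was called in 2 of the 6 fits that leave out 1 library, with edgeR's adjusted p from 0.0465 to 0.201. Crym at P7 in Pkd1 KO differed by -0.61 (0.29, adjusted p = 0.178). At P3 in Pkd2, Crym was higher in KO by 1.37 (0.41, adjusted p = 0.940) and Meox1 lower by 0.44 (0.14, adjusted p = 0.940), both without overlap. The share of all transcripts without overlap was not taken for KO against WT either. Osr1 at P3 in Pkd2 was lower in KO by 0.83 (0.50, adjusted p = 0.940), of which -0.03 was left without the WT library with adrenal markers.

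**Figure D4:**
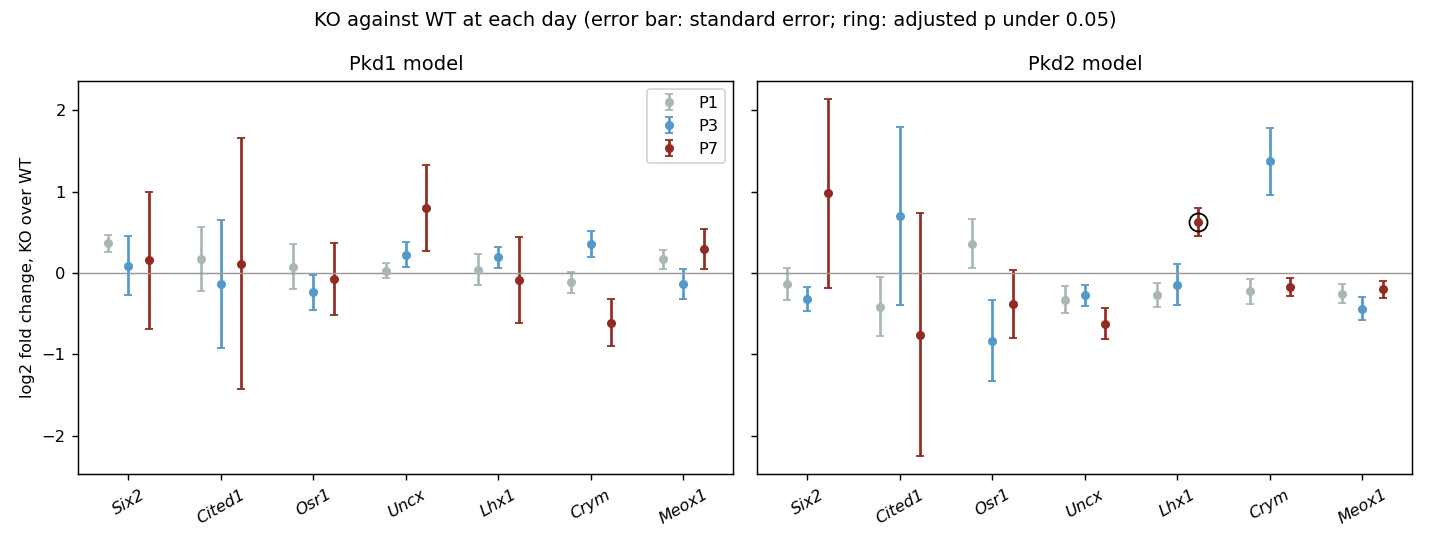
Log2 fold change of KO over WT (y axis) for 7 genes in the Pkd1 and Pkd2 models at P1, P3 and P7, with standard errors and a ring around a value with adjusted p under 0.05. The ring marks Lhx1 in Pkd2 at P7, at 0.62, and the error bars of Six2 and Cited1 at P7 span 0.

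Whether the loss over time itself differed between KO and WT was tested as an interaction. Of the 7 genes, 0 were called for the change from P1 to P3 or from P1 to P7 in either model, by edgeR or by DESeq2, and 0 and 0 in Pkd1 and 1 and 1 in Pkd2 had an unadjusted p under 0.05. The share of all transcripts called was 0.0% and 7.75% in Pkd1 and 0.0% and 1.3% in Pkd2. The Pkd1 groups at P7 also differ in Y-linked counts, present in 0 WT and 3 KO libraries. Where edgeR called 0 of all transcripts, DESeq2 called 12 in Pkd1 and 0 in Pkd2, and 430 and 672 had an unadjusted p under 0.05. For the change from P1 to P7, DESeq2 called 1651 and 491, and 3321 and 1954 had such a p. For Six2 the change from P1 to P7 differed by -0.24 in KO against WT in Pkd1 (standard error 0.94, adjusted p = 0.896) and by 1.11 in Pkd2 (0.95, adjusted p = 0.612). The lowest p values before adjustment belonged to Crym from P1 to P3 in Pkd2, at 1.59 (standard error 0.41, adjusted p = 0.880), and to Lhx1 from P1 to P7 in Pkd2, at 0.90 (0.32, adjusted p = 0.189).

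The loss was also set against itself in the 2 models. Among WT kidneys 0 of the 7 genes differed between Pkd1 and Pkd2 in the change from P1 to P7, by edgeR or DESeq2, with 0 at an unadjusted p under 0.05. The background was 0.0%, with 763 of 12343 transcripts at an unadjusted p under 0.05 and 3 called by DESeq2. Six2 differed by 1.75 (standard error 1.09, adjusted p = 0.866), on 17 and 4 reads at P7. Among KO kidneys Uncx was called, against a background of 8.42%: its loss was smaller in Pkd1 than in Pkd2 by 1.44 (0.46, adjusted p = 0.0466). That call was lost in 10 of the 12 fits that leave out 1 library, and with Y-linked counts as a covariate at an adjusted p of 0.0510. Without Pkd1 KO replicate 2 at P7, which had 699 counts, the value was 0.83 with adjusted p = 0.231. Without the libraries with adrenal markers it was 1.76 with adjusted p = 0.0129. The 2 models differ in the deleted gene and in the floxed line, and no sample was shared between them.

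How alike the members were was described by the correlation of log2 levels over the 36 libraries, which all carry the same change of day. Six2 correlated with Uncx at r = 0.926, Osr1 at 0.919, Lhx1 at 0.829 and Cited1 at 0.805, and with Meox1 at 0.328 and Crym at 0.287. Among the 12342 other transcripts compared, these took ranks 38, 46, 299, 395, 3435 and 3774. The 8 genes most like Six2 were Ntsr1 (0.975), Igf2bp2 (0.973), Etv4 (0.969), Lamp5 (0.966), Bmper (0.966), Capn6 (0.966), Etv5 (0.965) and Nell1 (0.963). Of these, Ntsr1, a neurotensin receptor, went from 298 normalized counts at P1 to 249 at P3 and 17.4 at P7 in Pkd1 WT, and from 273 to 161 and 4.38 in Pkd2 WT. Lamp5 went from 70.7 to 75.6 and 0.299 in Pkd1 WT and from 65.7 to 82.5 and 0 in Pkd2 WT, so that it fell to the floor as Six2 did but not before P3.

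Other genes of the progenitor and its neighbours were read from lists. Of 15 further cap mesenchyme genes, 5 of 14 tested were lower and 1 higher at P7 than at P1 in Pkd1 WT, and 7 of 15 lower and 1 higher in Pkd2 WT, where 13.2% and 13.6% of all transcripts were called lower and 12.6% and 13.1% higher. Fgf20, a growth factor that progenitors make for themselves, had 31 and 59 raw reads at P1 and 0 at P7 in Pkd1 WT and Pkd2 WT, which allows up to 8.81% and 6.51% of the P1 level (exact 95% bounds). In the KO kidneys 3 reads were left at P7 in either model, 7.43% and 7.86% of the P1 level. Fgf20 thus passed the filter only through earlier libraries, where it is high, which favours a lower value at P7. It is among the genes counted as lower above, and its calls are no separate support. Tmem100 fell, with log2 fold changes of -1.35 and -1.48 (adjusted p = 0.0274 and 0.00112). Fgf9 rose by 0.84 and 0.51 (adjusted p = 0.00726 and 0.0260), and Itga8, an integrin of the cap and of other mesenchyme, stood at 0.10 and 0.00098 (adjusted p = 0.737 and 0.998).
Genes of the ureteric tip, the neighbour that Gdnf acts on, were lower in 3 of 5 tested in Pkd1 WT and 4 of 5 in Pkd2 WT. Ret, the receptor of Gdnf, measured on 1 of its 2 transcripts, fell, with log2 fold changes of -4.69 and -4.05 (adjusted p = 3.9e-07 and 3.1e-05), from 182 ± 59.2 to 6.90 ± 1.90 and from 134 ± 51.7 to 8.09 ± 8.07 normalized counts (SD, n = 3). Etv4, which Ret signalling turns on, also fell, at -3.33 and -3.29 (adjusted p = 3.9e-07 and 4.16e-07). Wnt9b, the signal that starts nephron formation, stood at 0.59 and 0.61 (adjusted p = 0.485 and 0.331). Of the early nephron genes 5 of 15 were lower and 3 higher in Pkd1 WT and 8 of 16 lower in Pkd2 WT, with Dkk1 lowest at -3.48 and -4.38. In the nephrogenic stroma 2 of 7 were lower and 1 higher (Tcf21, 0.72, adjusted p = 0.000951) in Pkd1 WT and 1 of 7 lower in Pkd2 WT, a share near the 13.6% of all transcripts. The lower genes included Aldh1a2, a retinoic acid enzyme, which fell, at -1.17 and -1.15 (adjusted p = 0.000423 and 0.000173).
The developmental timing genes, Lin28b, Hmga2 and the Igf2bp family, were lower in all tested, 5 of 5 in Pkd1 WT and 4 of 4 in Pkd2 WT. Lin28b had a mean of 6.83 counts over all libraries and was tested in Pkd1 only. The filter can favour a fall in a gene at such counts, so its call is no separate support. Hmga2 fell, at -2.32 and -2.12 (adjusted p = 5.77e-07 and 1.27e-07), and Igf2bp1, Igf2bp2 and Igf2bp3 fell, with values between -1.19 and -0.87. All 8 proliferation genes were lower at P7 in both WT models, Ccnb1 at -1.22 and -1.41 and Top2a at -1.16 and -1.10. In the KO kidneys 6 of 8 were lower in Pkd1 and 1 of 8 in Pkd2, where 20.5% and 10.4% of all transcripts tested were called lower. The count in Pkd2 KO is near that share. Compared with WT at P7, 4 of the 8 in Pkd1 and 7 in Pkd2 were higher in KO and 0 were lower (medians of 0.38 and 0.67). There 13.5% and 14.1% of all transcripts were called in either direction. Of 8 mature nephron genes tested, 4 and 5 were higher at P7 than at P1 in Pkd1 WT and Pkd2 WT, and 0 were lower. The glucose transporter Slc5a2, for example, rose by 2.103 and 2.107. In the KO kidneys 4 of these 8 were lower and 1 higher in Pkd1 and 1 lower and 2 higher in Pkd2, beside the same 20.5% and 10.4% called lower. No share called higher was taken for the KO kidneys. At P7 6 of the 8 were lower in KO than in WT in both models (medians of -1.58 and -0.74), where 13.5% and 14.1% of all transcripts were called in either direction. The median log2 fold change was -0.30 and -0.47 for the cap mesenchyme list, -1.70 in both for the ureteric tip, -1.19 and -1.09 for timing and -0.96 and -1.01 for proliferation in Pkd1 WT and Pkd2 WT, beside medians of 0.01 over all transcripts.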

How the data were processed

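RNA from mouse kidneys was sequenced, and the authors deposited 1 table of raw counts per RefSeq transcript for all 36 libraries. Per the labels and the study's methods, reads were called with CASAVA 1.8.2, aligned to mm10 with TopHat2 2.1.0 and counted with HTSeq, whose version is not given in the sources used here. The deposited counts are unfiltered and not normalized. Library strandedness is likewise not given.

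Within each model (18 libraries), transcripts that reached 10 counts in 3 or more libraries entered edgeR 4.0.16 (quasi-likelihood test, TMM, R 4.3.3), with Benjamini-Hochberg adjustment over all transcripts tested and a threshold of 0.05. Changes over time and interactions came from 1 fit of 18 libraries per model, KO against WT from the 6 libraries of a day, and differences between models from all 36. Standard errors were derived from the fold change and its F statistic, and can be too small where few reads are left. Tables were handled with Python 3.11.15 and pandas 2.3.3, and plots drawn with matplotlib 3.10.9. Alternatives were DESeq2 1.42.0, other scalings, no filter, other samples in the fit, a replicate block, a covariate for Y-linked counts (present at 100 or more), counts summed over transcripts, a change of at least 2-fold and leaving out each library. Leaving out the 3 libraries with adrenal markers was added after seeing the data.

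Replicates were samples labelled as separate, so p-values measure only the spread between these samples. Overlap between groups was read for the members only, without its share over all transcripts, and is a description and no test. Replicate numbers paired the libraries at P1 in Pkd1, where same-numbered KO and WT libraries deviated together (correlations of 0.347, 0.205 and 0.519), a hint from the data and not from the labels, and at no other day. Intervals, at 95%, cover counting error only. The genes and lists were chosen with earlier results of these data known. Named were all 9 genes, the lowest 2 and highest 2 genes of each list by mean change in WT, of which some are given here, and the 8 genes most correlated with Six2.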

Additional observations from a re-analysis of the deposited data

Results flagged for a closer look

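A single value stood out by a test of a difference between groups. Among KO kidneys the change of Uncx from P1 to P7 differed between the Pkd1 and the Pkd2 model by 1.44 on the log2 scale (standard error 0.46, edgeR's adjusted p = 0.0466), with the smaller loss in Pkd1. The P7 libraries were 134, 699 and 394 normalized counts in Pkd1 KO and 113, 87.5 and 78.3 in Pkd2 KO. As a share of the P1 mean of their own group they overlapped, with 8.58% the lowest in Pkd1 KO and 11.7% the highest in Pkd2 KO. Of the 12 fits that leave out 1 library 2 kept the call, with values from 0.83 to 1.87 and adjusted p from 0.00398 to 0.231.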

How the results depend on the processing

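Of 2695 alternative values of the genes, 131 changed sign, none of them a call, and the largest such value was 1.11 in size (the Cited1 interaction in Pkd2 at P3, which lay between -0.21 and 1.65 when 1 library was left out). The 45 calls were kept in 385 of 403 alternative values that keep all single libraries and in 252 of 276 that leave 1 out. The number of genes lower at P3 than at P1 was 1 in place of 0 in Pkd1 WT and in Pkd1 KO by DESeq2, and 1 in Pkd1 KO with only the 6 libraries compared. In Pkd2 WT it was 0 in place of 3 with only the 6 libraries, and in Pkd2 KO 3 in place of 1 by DESeq2 and without the adrenal-marker libraries. At P7 in Pkd1 KO it was 3 in place of 6 with the Y-linked covariate. KO against WT at P7 gave 1 in place of 0 in Pkd1 with all 18 libraries of the model (Crym, adjusted p = 0.0488). In Pkd2 it gave 0 in place of 1 with library totals alone, without the adrenal-marker libraries, with the Y-linked covariate and at a change of 2-fold, and 2 by DESeq2. The difference between models among KO kidneys gave 0 in place of 1 without the filter, with the Y-linked covariate and with the replicate block, under which Uncx had 1.42 and an adjusted p of 0.0694. The cause was not tested in any of these.

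With the replicate block, Crym in Pkd1 WT from P1 to P7 gained a call (-0.62, adjusted p = 0.0352), as did Crym in Pkd1 KO from P3 to P7 (-0.58, adjusted p = 0.0341), and Lhx1 in Pkd2 at P7 kept its call (adjusted p = 0.0296). Beside these and Uncx, the block changed no call of these genes, and none at P1 in Pkd1. Leaving out 1 library gave 5 to 6 genes lower at P7 in Pkd1 WT, 0 to 3 and 1 to 3 lower at P3 in Pkd2 WT and Pkd2 KO, 0 to 2 changed in Pkd2 KO at P7, and 0 to 1 for the difference between models among KO kidneys. Among the values printed in the report that changed sign, Osr1 from P1 to P3 in Pkd2 WT was -0.73 without the adrenal-marker libraries, and from -0.72 (without WT replicate 2 at P3) to 0.40 when 1 library was left out, with -0.17 without WT replicate 1 at P1. The Six2 interaction in Pkd1 at P7 lay between -0.75 and 0.62, with 0.62 without WT replicate 2 and 0.20 without KO replicate 3 at P7, and Crym in Pkd2 KO from P1 to P3 lay between -0.60 and 0.037, the latter without KO replicate 3 at P3. Depth limits Six2 and Cited1 at P7 and Eya1 and Gdnf throughout.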
